A study of Homo sapiens with 9 samples.

Results

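Long intergenic noncoding RNAs that carry a LINC name were followed in A549 cells, a human lung cancer cell line, after depletion of Cyclin K. Of the 56252 rows listed for every library, 682 held a symbol made of LINC and digits, and the 138 rows with a mean FPKM of at least 0.3 over the 9 libraries were kept. FPKM counts sequenced fragments relative to transcript length and library size, so that levels of different RNAs can be compared. LINC02256 lay on 2 rows that were summed, which left 137 RNAs of 681 LINC-named genes, and all 137 passed the filter for testing among 21048 genes. The members were chosen by their mean FPKM, so that the level itself is a description and not a finding. At the edge of the threshold LINC02361 (0.314 FPKM), LINC01772 (0.304) and LINC01572 (0.3003) were just inside, and LINC01529 (0.290), LINC02300 (0.285) and LINC02073 (0.283) were just outside.

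The A549 cells were transfected for 48 h with a scrambled control siRNA (siCtrl) or with 1 of 2 siRNAs against the Cyclin K mRNA (siCyclinK#1 and siCyclinK#2), with 3 libraries of total RNA in each group. All groups were the same cell line, all carried an siRNA, and no untransfected cells were analysed here. The labels do not say whether the 3 libraries of a group came from separate cultures, so that p-values measure the spread between these libraries, which may be technical. The depth, recovered from the steps of the low FPKM values, was 31333749 to 33767961 reads per library.

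Cyclin K is the partner of CDK12 and CDK13, kinases that act on the elongating form of RNA polymerase II. Long intergenic noncoding RNAs are made by the same polymerase from stretches between protein-coding genes, and most are capped, spliced and polyadenylated. Many start at the promoter of a protein-coding gene and run in the opposite direction, most are far less abundant than mRNAs, and many are short-lived because the nuclear exosome degrades them.

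CCNK, which encodes Cyclin K, was at 7.02 ± 0.107 FPKM (SD, n = 3) with siCtrl, 0.809 ± 0.0857 with siCyclinK#1 and 0.844 ± 0.0661 with siCyclinK#2, so that the target was depleted in all 6 libraries. The epithelial keratin genes KRT8 (55.3 FPKM with siCtrl) and KRT18 (83.2) and the A549 enzymes AKR1B10 (327, on a row with AKR1B15) and ALDH1A1 (550) were abundant, while KRT19 (0.0578) and EPCAM (0.0408), both epithelial, were near 0. The summed level of the 5 fibroblast markers was 2.29 to 2.71 FPKM with siCtrl, 15.5 to 17.4 with siCyclinK#1 and 3.55 to 3.74 with siCyclinK#2. COL1A1 and LUM accounted for the rise and passed the test with siCyclinK#1, whereas COL1A2 had a mean of 0 with siCtrl and 0.00369 with siCyclinK#1. The part of these cell markers in the results below was not tested. The 3 endothelial markers together stayed at or under 0.0445 FPKM in each library, and PTPRC, which marks blood cells, had a mean of 0.00444 with siCtrl and 0 with either siCyclinK siRNA. CD68, a macrophage marker that other cells also express, was at 30.3 FPKM with siCtrl, 32.2 with siCyclinK#1 and 37.9 with siCyclinK#2, and rose with siCyclinK#2 (log2 fold change 0.32, limma adjusted p = 2.4e-04).

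**Figure D1:**
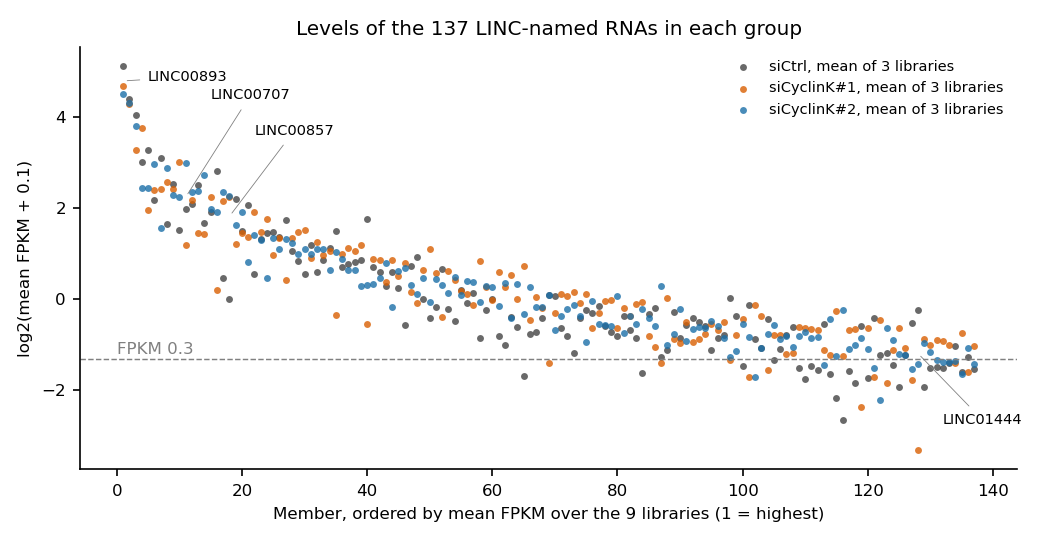
Mean level of each of the 137 LINC-named RNAs in the 3 groups, on the log2(mean FPKM + 0.1) scale (vertical axis), ordered by the mean over the 9 libraries (horizontal axis), with each point the mean of 3 libraries. The members run from 27.7 FPKM (LINC00893) down to the threshold of 0.3 (dashed line), and single members lie well off the curve in 1 group, such as LINC01444 at 0 with siCyclinK#1.

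The members were mostly scarce. The median of their mean levels was 0.732 FPKM, 3 had a mean of 10 FPKM or more, 54 lay between 1 and 10, and 80 were under 1. In the GENCODE 29 annotation, which lists 135 of them, 101 were of the lincRNA type, 11 were processed transcripts, 10 were antisense RNAs and 9 were pseudogenes, so that the LINC name covered more than strictly intergenic genes. The genes spanned 436 to 448464 bases (median 10632), with a median of 2075 exonic bases. Of the 137, 84 had a row of their own Ensembl identifier and 30 a locus that StringTie had assembled over 1 reference gene, while 23 shared a row with other genes and their values cannot be told apart from those genes. With siCtrl, 114 members had a mean of at least 0.3 FPKM. The other 23 reached the threshold through the Cyclin K depleted groups.

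The highest level was that of LINC00893, which overlaps CXorf40A on chromosome X. It was at 32.7, 37.4 and 34.0 FPKM with siCtrl, 24.3, 27.9 and 24.6 with siCyclinK#1, and 35.9, 15.3 and 17.0 with siCyclinK#2. The siCyclinK#2 libraries did not move together, and no comparison of LINC00893 passed the test (log2 fold change over both siRNAs -0.58, standard error 0.24, limma adjusted p = 0.10). LINC02246 (20.9 ± 0.580 FPKM with siCtrl), LINC00618 (16.4 ± 0.605) and LINC01619 (7.96 ± 0.191) followed among the most abundant, but their rows also held NRIP1, a nuclear receptor corepressor, VRK1, a chromatin kinase, and BTG1, an antiproliferative gene. The row of LINC00618 and VRK1 fell by 0.50 in log2 over both siRNAs (limma adjusted p = 0.040). The row of LINC01619 and BTG1 was at 1.61, 12.7 and 1.71 FPKM in the siCyclinK#2 libraries, so that 1 of these 3 libraries stood apart. Of the abundant members on rows of their own, LINC00641 (9.57 ± 0.192 FPKM with siCtrl), LINC00294 (4.45 ± 0.0899), LINC01234 (3.02 ± 0.151) and LINC00511 (2.75 ± 0.256) were each measured within a narrow range. The siCtrl libraries of LINC01836, also on a row of its own, were further apart (5.67 ± 0.846 FPKM). LINC01836 was at 5.23 ± 0.306 FPKM with siCyclinK#1 and 4.79 ± 0.117 with siCyclinK#2, and passed no test against siCtrl.

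Because the promoters of members that rose and of members that fell differed in composition, 4 promoters are shown here before the values, chosen after the values had been seen. RefSeq (GRCh38.p14) gave a promoter, from 250 bases before to 50 bases after the start site, for 92 of the 137 members. LINC00857 (chr10:80207460-80207759, plus strand) and LINC00511 (chr17:72640423-72640722, minus strand) rose after depletion, and LINC00641 (chr14:21206851-21207150, minus strand) and LINC00488 (chr3:109177915-109178214, plus strand) fell. For all 4 the RefSeq start is the start given in the files. Capitals mark CG dinucleotides (CpG) in the promoters of LINC00857, LINC00511 and LINC00641, and the letters TGANTCA, a motif of the kind AP-1 factors bind, in that of LINC00488.
LINC00857: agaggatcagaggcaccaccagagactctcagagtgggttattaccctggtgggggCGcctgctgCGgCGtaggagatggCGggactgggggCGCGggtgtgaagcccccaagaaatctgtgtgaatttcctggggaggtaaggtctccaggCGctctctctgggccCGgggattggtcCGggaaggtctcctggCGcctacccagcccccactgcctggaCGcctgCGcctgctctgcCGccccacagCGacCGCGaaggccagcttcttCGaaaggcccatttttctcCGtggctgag
LINC00511: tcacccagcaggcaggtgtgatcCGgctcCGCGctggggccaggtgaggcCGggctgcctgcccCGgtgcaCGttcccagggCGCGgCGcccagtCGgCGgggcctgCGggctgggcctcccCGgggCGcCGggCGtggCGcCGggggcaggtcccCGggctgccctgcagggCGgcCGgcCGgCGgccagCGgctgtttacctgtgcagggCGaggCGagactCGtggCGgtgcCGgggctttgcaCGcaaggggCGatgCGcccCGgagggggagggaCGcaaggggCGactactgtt
LINC00641: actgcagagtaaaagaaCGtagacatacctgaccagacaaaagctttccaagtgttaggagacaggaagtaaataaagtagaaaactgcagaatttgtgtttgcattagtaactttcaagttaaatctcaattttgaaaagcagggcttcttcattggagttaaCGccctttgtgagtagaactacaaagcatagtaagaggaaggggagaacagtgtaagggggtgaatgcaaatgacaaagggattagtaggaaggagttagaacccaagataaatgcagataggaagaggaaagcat
LINC00488: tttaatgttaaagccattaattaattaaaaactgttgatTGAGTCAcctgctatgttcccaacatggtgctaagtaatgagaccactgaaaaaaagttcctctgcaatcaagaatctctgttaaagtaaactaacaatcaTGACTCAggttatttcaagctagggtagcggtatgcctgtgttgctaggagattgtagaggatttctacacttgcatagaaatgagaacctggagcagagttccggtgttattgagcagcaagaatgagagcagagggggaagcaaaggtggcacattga
The promoter of LINC00857 held 18 CpG and that of LINC00511 35, against 2 in LINC00641 and 2 in LINC00488.

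After Cyclin K depletion, more members rose than fell, as was also the case over all genes tested. Over both siRNAs, 30 of the 137 RNAs rose and 16 fell at a limma adjusted p under 0.05, beside 17.0% higher and 11.5% lower of all genes tested, on the log2(FPKM + 0.1) scale that all fitted values use. Among all genes with a mean of at least 0.3 FPKM the shares were 22.2% and 14.7%, and the members' shares were 21.9% and 11.7%. The median log2 fold change of the members was 0.185, beside 0.062 over all genes. The 114 members with at least 0.3 FPKM in siCtrl, which did not need the depleted groups to enter, had 19 rises and 16 falls with a median of 0.043, and all genes chosen the same way had 20.6% rises and 15.8% falls with a median of 0.007. In the other 1597 long noncoding genes of GENCODE with a mean of at least 0.3 FPKM, 208 were higher and 171 lower. At the thresholds of the study's methods, a fold change over 3 with an unadjusted p under 0.01, 5 members were called higher and 3 lower, beside 1.43% and 0.865% of all genes and 1.76% and 0.783% of genes with a mean of at least 0.3 FPKM. Of the 114 members with at least 0.3 FPKM in siCtrl, 2 were called higher and 3 lower, beside 1.17% and 1.17% of all genes chosen the same way, so that the balance of higher and lower turned. This count of 8 was 5 without siCtrl replicate 1 and 4 without siCtrl replicate 2. In 51 members the 6 depleted libraries did not overlap the 3 siCtrl libraries (37.2%, beside 32.6% of all genes and 41.7% of genes with a mean of at least 0.3 FPKM), 34 of them higher and 17 lower.

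**Figure D2:**
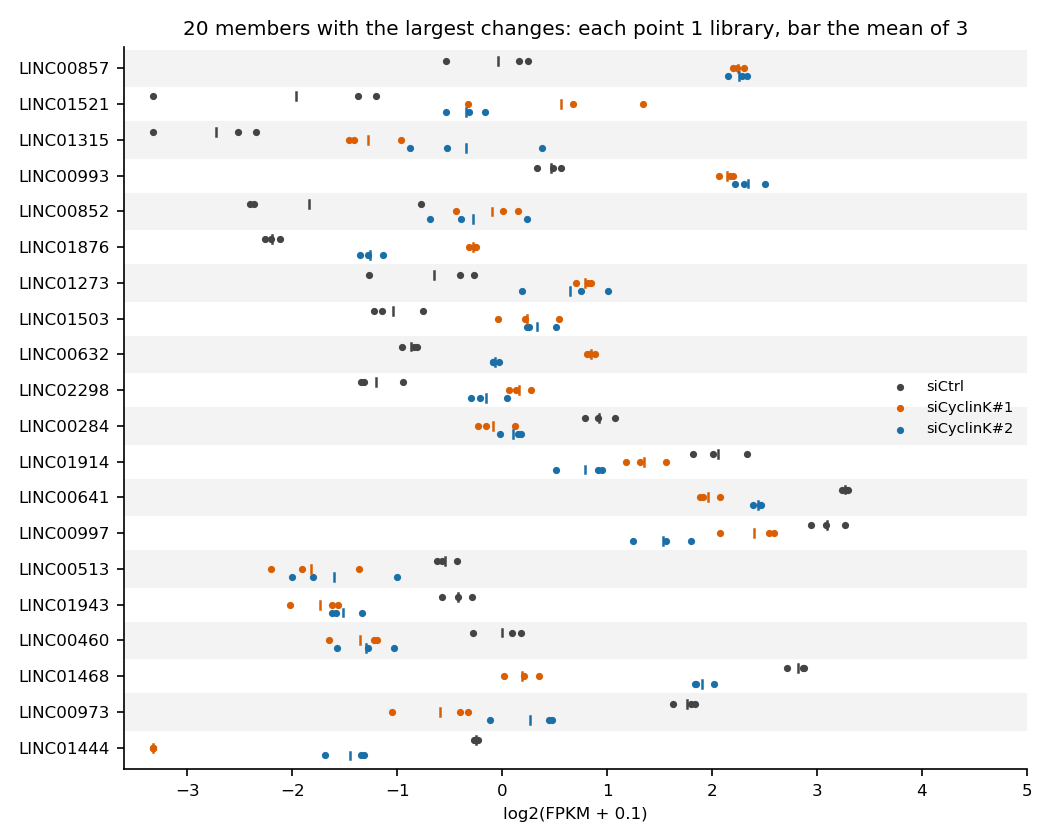
Values of the 10 members with the largest rises and the 10 with the largest falls over both siRNAs, on the log2(FPKM + 0.1) scale (horizontal axis), with each point 1 library and each bar the mean of the 3 libraries of a group. All 6 Cyclin K depleted libraries lie on 1 side of the 3 siCtrl libraries for each RNA shown, as the choice of these RNAs required, and a value of 0 FPKM plots at the left edge.

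LINC00857, an RNA studied for its role in lung adenocarcinoma growth, had the largest rise. LINC00857 (ENSG00000237523, chr10:80207710-80219657, plus strand, GRCh38) was at 0.590, 1.02 and 1.09 FPKM with siCtrl, 4.83, 4.51 and 4.63 with siCyclinK#1, and 4.36, 4.80 and 4.94 with siCyclinK#2. The 6 depleted libraries were nearly level with each other and far above all 3 controls, which is a 5.17-fold and a 5.21-fold higher mean. Its log2 fold change was 2.29 (standard error 0.16, limma adjusted p = 9.5e-06). The siRNAs differed by -0.01 in log2 (standard error 0.18, adjusted p = 0.98). LINC00993 rose almost as evenly, from 1.28 ± 0.112 FPKM (SD, n = 3) to 4.33 ± 0.209 and 4.99 ± 0.526, which fitted as 1.78 in log2 (standard error 0.11, limma adjusted p = 4.4e-06). Its row also held AL157387.1, and it overlaps ANKRD30A, so that the transcript behind the value is uncertain. LINC00857 and LINC00993 were each called with either siRNA, though both comparisons use the same siCtrl libraries.

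The other 3 members called higher started from few reads. Their siCtrl means were under 0.3 FPKM, so that they entered the set only through the depleted groups in which they were high. LINC01521 had 22, 0 and 18 recovered reads with siCtrl, 44, 91 and 156 with siCyclinK#1, and 44, 38 and 49 with siCyclinK#2. All 6 depleted libraries were above the controls, but the control with 0 reads weighed on the test (adjusted p = 0.017 with all libraries, 0.073 without siCtrl replicate 2). LINC01315 had 0, 3 and 4 reads with siCtrl, 17, 11 and 11 with siCyclinK#1, and 49, 25 and 18 with siCyclinK#2, with an adjusted p of 0.0066. LINC00852 had 4, 4 and 21 reads with siCtrl, 39, 42 and 28 with siCyclinK#1, and 46, 23 and 28 with siCyclinK#2, with an adjusted p of 0.0086. It overlaps AC022384.1 and is antisense to GHRL, the ghrelin gene, and since the sources used here do not say whether counting used the strand, reads of overlapping genes on opposite strands cannot be told apart.

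Several better covered members rose by less. LINC01234, an RNA linked to several carcinomas, went from 3.02 ± 0.151 FPKM with siCtrl to 5.81 ± 0.285 with siCyclinK#1 and 7.27 ± 0.438 with siCyclinK#2 (log2 fold change 1.08, standard error 0.12, limma adjusted p = 0.00012). LINC00511, studied in lung and breast cancer, was at 2.98, 2.79 and 2.47 FPKM with siCtrl, 6.32, 9.38 and 8.37 with siCyclinK#1 and 4.68, 3.76 and 5.39 with siCyclinK#2. The control values were all below the depleted ones, and the rise was larger with siCyclinK#1 (log2 difference between the siRNAs 0.78, standard error 0.17, adjusted p = 0.0078). LINC00963, first described in prostate cancer, had 592, 551 and 613 reads with siCtrl, 1108, 1116 and 1279 with siCyclinK#1, and 881, 900 and 844 with siCyclinK#2, without overlap between any of the groups. LINC00632, from which the circular RNA CDR1as is made, rose from 0.449 ± 0.0279 FPKM to 1.70 ± 0.0508 and 0.856 ± 0.0224 (log2 fold change 1.26, standard error 0.28, adjusted p = 0.0073). The values do not tell linear from circular RNA. LINC01278 (1.13), LINC02298 (1.21), LINC01503 (1.33) and LINC01273 (1.37), given here by their log2 fold change, rose as well. So did the scarce LINC01876 (1.43), but its siCtrl mean was under 0.3 FPKM, so that it entered the set only through the depleted groups. LINC00472, on a row with AL136164.2 and AL589935.1, was scarce, at 0.237 ± 0.146 FPKM with siCtrl, 0.526 ± 0.111 with siCyclinK#1 and 0.462 ± 0.0986 with siCyclinK#2. Its siCtrl mean was under 0.3 FPKM, so that it entered the set only through the depleted groups. Its adjusted p of 0.034 was 0.12 without siCtrl replicate 1 and 0.15 without siCtrl replicate 3.

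Of the members that fell, LINC01444 changed the most. LINC01444 (ENSG00000264301, chr18:14969001-14970468, minus strand) had 33, 32 and 32 reads with siCtrl, 0, 0 and 0 with siCyclinK#1, and 13, 13 and 9 with siCyclinK#2. With siCyclinK#1 no read was found in any library, and with siCyclinK#2 all 3 libraries stayed below the controls. A floor of 3 reads per library is 0.0697 FPKM here, so that LINC01444 was at least 10.6-fold lower with siCyclinK#1. Its fitted log2 fold change of -2.13 over both siRNAs (adjusted p = 0.016) depends on the pseudocount and is no bound, and the adjusted p lay between 0.056 and 0.058 without any 1 of the siCtrl libraries. LINC00973 (chr3:98981058-98983096, plus strand) was at 3.00, 3.39 and 3.49 FPKM with siCtrl, 0.384, 0.697 and 0.659 with siCyclinK#1, and 1.26, 1.29 and 0.826 with siCyclinK#2, which left 17.6% and 34.2% of the control mean (log2 fold change -1.92, standard error 0.31, adjusted p = 0.0013).

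LINC01468, which GENCODE names LNCAROD after a reported activation of the Wnt inhibitor gene DKK1, fell from 6.48, 7.25 and 7.20 FPKM to 1.05, 0.914 and 1.17 with siCyclinK#1 and 3.48, 3.95 and 3.50 with siCyclinK#2. The 3 groups were apart from each other, and the siRNAs left 15% and 52.2% of the control mean. Since the siRNAs differed in size, the adjusted p over both was 0.021, and it was between 0.062 and 0.072 without any 1 of the siCtrl libraries, while each siRNA by itself passed (adjusted p = 1.6e-07 and 0.00013). DKK1, whose start lies 156237 bases away, was at 115 FPKM with siCtrl, 131 with siCyclinK#1 and 104 with siCyclinK#2, and its 3 groups did not overlap. DKK1 rose by 0.19 in log2 with siCyclinK#1 (standard error 0.03, limma adjusted p = 0.0015), fell by 0.15 with siCyclinK#2 (standard error 0.03, adjusted p = 0.0061), and differed between the siRNAs by 0.34 (adjusted p = 9.3e-05), while its mean change over both was 0.02 (adjusted p = 0.93).

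LINC00641, the most abundant member on a row of its own that fell, had 1855, 1703 and 1804 reads with siCtrl, 681, 644 and 774 with siCyclinK#1, and 996, 1025 and 939 with siCyclinK#2. Its depleted libraries were at 39.7% and 55.7% of the control mean, without overlap (log2 fold change -1.07, standard error 0.15, limma adjusted p = 0.00056). It starts 2236 bases downstream of HNRNPC, an RNA-binding protein gene on the same strand, whose own fitted change was 0.06 in log2 (standard error 0.08, limma adjusted p = 0.59). LINC00460, studied in lung and head and neck carcinoma, had 148, 98 and 133 reads with siCtrl, 45, 29 and 47 with siCyclinK#1, and 32, 55 and 42 with siCyclinK#2, and the siRNAs left 32.4% and 34.3% of the FPKM. LINC01943 was at 0.648 ± 0.0740 FPKM with siCtrl, 0.204 ± 0.0497 with siCyclinK#1 and 0.251 ± 0.0384 with siCyclinK#2, LINC00513 had a log2 fold change of -1.17, LINC01914 of -0.98 and LINC00284 of -0.92. LINC00997, on a row with ZNRF2P1 and AC018645.2, had a log2 fold change of -1.13, with an adjusted p of 0.014 that was 0.064 without siCtrl replicate 1 and 0.051 without siCtrl replicate 2. LINC00488 had a log2 fold change of -1.15 over both siRNAs (limma adjusted p = 0.028), but its depleted libraries overlapped the siCtrl libraries. Its log2 fold change was -1.58 with siCyclinK#1 and -0.72 with siCyclinK#2.

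Of the members chosen because their names are known from earlier work on cancer, several did not pass over both siRNAs. LINC00941 was at 2.72 ± 0.0595 FPKM with siCtrl, 0.683 ± 0.299 with siCyclinK#1 and 1.95 ± 0.192 with siCyclinK#2, and fell with siCyclinK#1 (log2 fold change -1.93, standard error 0.26, limma adjusted p = 0.00033) but had -0.47 with siCyclinK#2 (adjusted p = 0.22). LINC00294 rose with each siRNA (log2 fold change 0.21 and 0.78, adjusted p = 0.027 and 3.0e-05) and had an adjusted p of 0.057 over both. LINC00662 (log2 fold change 0.50, adjusted p = 0.068), LINC00339 (0.16, adjusted p = 0.39), LINC01116 (0.17, adjusted p = 0.49), LINC00467 (-0.11, adjusted p = 0.72) and LINC00839 (-0.05, adjusted p = 0.94) were not past the threshold over both siRNAs. Tested directly between the siRNAs, LINC01116 (-0.07 with siCyclinK#1, 0.40 with siCyclinK#2) and LINC00467 (0.17 and -0.38) differed at an adjusted p under 0.05. LINC00662, LINC00339 and LINC00839 did not.

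Each siRNA was then compared with siCtrl. With siCyclinK#1, 39 members rose and 25 fell at an adjusted p under 0.05, beside 26.8% and 18.1% of all genes and 33.1% and 23.5% of genes with a mean of at least 0.3 FPKM. These are 28.5% and 18.2% of the members, below the shares in genes of at least that level. At a fold change over 3, 6 were called higher and 5 lower, beside 3.19% and 1.48% of all genes and 3.38% and 1.58% of genes with a mean of at least 0.3 FPKM. Of the 114 members with at least 0.3 FPKM in siCtrl, 28 rose and 25 fell with siCyclinK#1, beside 30.8% and 24.8% of all genes chosen the same way, and 3 were called higher and 5 lower, beside 2.30% and 2.01%. With siCyclinK#2, 34 rose and 20 fell, beside 19.8% and 15.2% of all genes and 26.5% and 19.6% of genes with a mean of at least 0.3 FPKM. These are 24.8% and 14.6% of the members, again below the shares in genes of at least that level. At a fold change over 3, limma called 3 higher and 0 lower, beside 1.08% and 0.860% of all genes and 1.27% and 0.715% of genes with a mean of at least 0.3 FPKM. Of the 114 members with at least 0.3 FPKM in siCtrl, 26 rose and 20 fell with siCyclinK#2, beside 25.1% and 20.7% of all genes chosen the same way, and 2 were called higher and 0 lower, beside 0.901% and 1.07%. With siCyclinK#2, 26 members were lower at an unadjusted p under 0.05, and limma-voom on recovered reads also called 3 higher and 0 lower. The siCyclinK#2 count of 3 was 5 without siCtrl replicate 3 and 7 without siCyclinK#2 replicate 2. The files' FPKM put the median gene of the siCyclinK#1 comparison at 0.102 in log2, and median-ratio rescaling moved it to -0.002. Under quantile normalization the siCyclinK#1 split became 27 rises and 31 falls, and the calls became 4 higher and 7 lower, against 5 and 7 under median-ratio rescaling. The siCyclinK#2 calls were 3 higher and 1 lower under either rescaling.

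**Figure D3:**
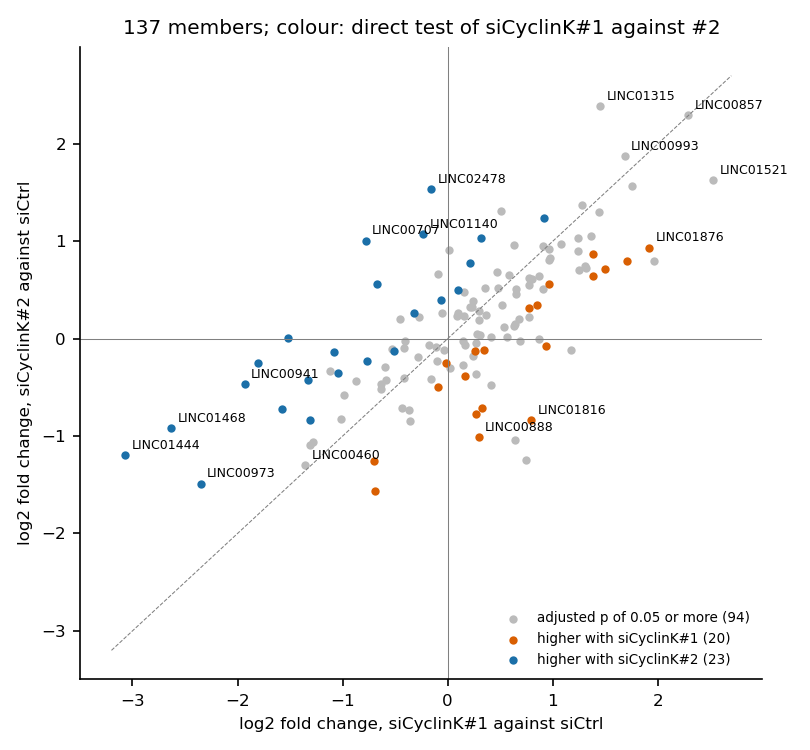
Log2 fold change of each of the 137 members with siCyclinK#1 (horizontal axis) and siCyclinK#2 (vertical axis) against the same 3 siCtrl libraries, coloured by the direct test between the siRNAs, in which 20 members were higher with siCyclinK#1 and 23 with siCyclinK#2 at an adjusted p under 0.05. The dashed line marks equal change. LINC00857 lies on it, and LINC00707, LINC01140 and LINC00888 lie in the corners of opposite change.

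The siRNAs differed on some members. Tested directly against each other, siCyclinK#1 had 20 members higher and 23 lower than siCyclinK#2 at an adjusted p under 0.05 (17.1% and 12.3% of all genes, 21.5% and 16.8% of genes with a mean of at least 0.3 FPKM), and at a fold change over 3 limma called 1 higher, LINC01816, and 4 lower, LINC01444, LINC01468, LINC00707 and LINC02478 (0.969% and 0.561% of all genes, 0.789% and 0.546% of genes with a mean of at least 0.3 FPKM). The count of 5 became 8 without siCyclinK#1 replicate 3, and quantile normalization gave 14 higher and 25 lower, with 0 and 7 called. LINC00707, studied in lung adenocarcinoma, was at 4.08, 3.62 and 3.79 FPKM with siCtrl, 2.33, 2.21 and 2.04 with siCyclinK#1, and 7.13, 8.22 and 8.09 with siCyclinK#2. Every siCyclinK#1 library was below and every siCyclinK#2 library above the controls, and the difference between the siRNAs was -1.79 in log2 (standard error 0.08, adjusted p = 1.7e-06). LINC01140, whose row also held HS2ST1, a heparan sulfate sulfotransferase gene, went from 3.07 ± 0.146 FPKM to 2.60 ± 0.0344 with siCyclinK#1 and 6.56 ± 0.143 with siCyclinK#2 (difference -1.30, standard error 0.06, adjusted p = 1.4e-06).

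LINC00888 moved the other way, from 2.65 ± 0.209 FPKM with siCtrl to 3.27 ± 0.223 with siCyclinK#1 and 1.27 ± 0.147 with siCyclinK#2 (difference 1.31, standard error 0.10, limma adjusted p = 3.5e-05). Its fall with siCyclinK#2 was large (log2 fold change -1.01), whereas its rise with siCyclinK#1 (0.29, adjusted p = 0.049) was not past the threshold under median-ratio rescaling (adjusted p = 0.22) or quantile normalization (0.36). LINC02478, on a row with ITGB6, an integrin gene, was at 0.315 ± 0.0271 FPKM with siCtrl, 0.277 ± 0.0726 with siCyclinK#1 and 1.11 ± 0.197 with siCyclinK#2. LINC01173 had 0.565 ± 0.127, 0.0912 ± 0.0409 and 0.453 ± 0.0416 FPKM in the same order, so that it fell with siCyclinK#1 (log2 fold change -1.80, adjusted p = 0.00020) and had -0.25 with siCyclinK#2 (adjusted p = 0.45). LINC01547, LINC01513, LINC01816 and LINC02575 were higher with siCyclinK#1 than with siCyclinK#2 by 1.04, 1.04, 1.63 and 1.01 in log2. The 7 letters GTGATAA, which match bases 2 to 8 of the guide strand of siCyclinK#1, occurred in the longest GENCODE transcript of 14 of 135 members (10.4%) and of 12.2% of 19805 genes tested. They were in 2 of the 23 members that were lower with siCyclinK#1 than with siCyclinK#2 and in 3 of 19 that were higher and had a transcript.

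The members differed by the composition of their promoters. CpG-rich promoters are the common kind at broadly expressed genes, and CpG-poor ones are more often tissue-specific. The 300-base promoters of the 92 members with a RefSeq start held a median of 11 CpG, beside 14 in 27305 promoters of all genes. Of the 48 members with 10 or more CpG, a number chosen after the data had been seen, 16 rose and 1 fell over both siRNAs, with a median log2 fold change of 0.469. Of the 44 with fewer, 5 rose and 12 fell, with a median of -0.107. All genes tested with a RefSeq promoter had 2057 rises and 1198 falls of 8222 at 10 or more CpG (median 0.099) and 248 and 163 of 1334 below it (median 0.107). The other long noncoding genes with a mean of at least 0.3 FPKM had 31 rises and 19 falls of 170 (median 0.057), against 7 and 8 of 55 (median 0.033). No test was made, since the split was noticed in these values.

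Among the 78 members with a RefSeq promoter and at least 0.3 FPKM in siCtrl, 11 rose and 1 fell of 39 CpG-rich ones and 4 rose and 12 fell of 39 CpG-poor ones. This count and those that follow use overlapping parts of the same members, so that they add no independent support to a split noticed in them. Those that follow were not limited to members with at least 0.3 FPKM in siCtrl. In members whose RefSeq start lay within 100 bases of the start in the files, the counts were 13 and 1 of 37, against 4 and 7 of 31. In members on a row of their own Ensembl identifier, they were 11 and 1 of 27, against 3 and 6 of 28, with medians of 0.762 and -0.012. With members at a mean of 1 FPKM or more they were 7 and 1 of 20, against 3 and 7 of 17. With 20 CpG as the cut, 13 rose and 0 fell of 35, against 8 and 13 of 57, and with 5 CpG 17 rose and 5 fell of 63, against 4 and 8 of 29. Taken by siRNA, 20 CpG-rich members rose and 3 fell with siCyclinK#1 and 15 and 3 with siCyclinK#2, whereas 6 CpG-poor members rose and 16 fell with siCyclinK#1 and 8 and 10 with siCyclinK#2. LINC00857, LINC00511 and LINC00963 (43 CpG, with a RefSeq start 5209 bases from the start in the files) were CpG-rich and rose. LINC00472 (31) and LINC01315 (28) were also CpG-rich and rose, but they entered the set only through the depleted groups. LINC01444 (2), LINC00641, LINC00488, LINC01943 (1) and LINC00997 (1) were CpG-poor and fell. Against this split, LINC00993 (3), LINC01278 (7), LINC01234 (4), LINC00632 (2) and LINC00852 (2) were CpG-poor and rose, and LINC01322 (11) was CpG-rich and fell.

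**Figure D4:**
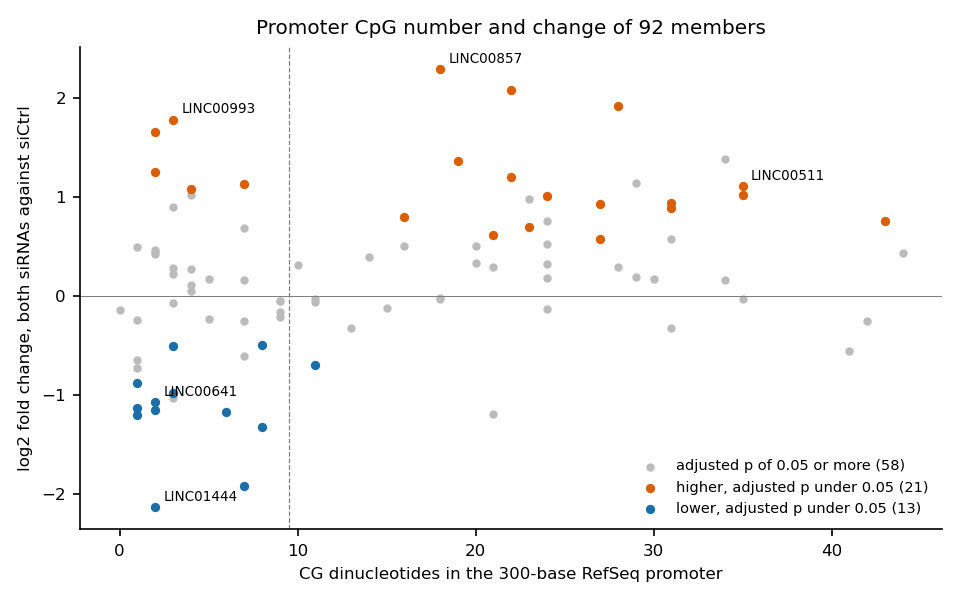
Number of CG dinucleotides in the 300-base RefSeq promoter (horizontal axis) and log2 fold change over both siRNAs (vertical axis) of the 92 members that have one, coloured by the limma test, with the dashed line between 9 and 10 CpG. The points that fell gather on the left of the line, 12 of 13, and 16 of the 21 that rose are on the right.

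Of 5 motifs searched on both strands, TGANTCA was in 14.1% of the members' promoters (13 of 92) and 7.76% of all promoters. Of the 13 members with it, 6 fell, LINC00973, LINC00460, LINC01943, LINC00513, LINC00488 and LINC00618 (on a row with VRK1), and 1 rose, LINC00963. In 6 of the 13 the RefSeq start lay within 100 bases of the start in the files, and of these 0 rose and 2 fell by limma. Among all genes tested with a promoter that held it, 85 rose and 80 fell of 480, against 2220 and 1281 of 9076 without it. For LINC00973, LINC00513, LINC00618, LINC00963 and LINC00460 the RefSeq start lay 66492, 59744, 12212, 5209 and 2087 bases from the start in the files. CACGTG, the E-box letters, was in 10.9% of the members' promoters and 7.43% of all, TATAAA in 11 of 92 and 3264 of 27305, TGACNNNGC in 15.2% and 13.6%, and CTTTGAT in 1.09% and 2.64%. A match says only that the letters are in this window.

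Members that start near the start of a protein-coding gene on the other strand were then set beside that gene. In 16 members the start lay within 5000 bases of the start of a protein-coding gene on the other strand, and the pair was transcribed away from each other. Of these 16 members, 7 rose and 0 fell by limma over both siRNAs (9 higher and 0 lower at an unadjusted p under 0.05), with a median log2 fold change of 0.685, beside 17.0% higher and 11.5% lower of all genes. Of the 12 with at least 0.3 FPKM in siCtrl, 4 rose and 0 fell, with a median of 0.454. With siCyclinK#2, 6 of the 16 rose and 1 fell, LINC01547, by 0.77 in log2. The other 121 members had 23 rises and 16 falls and a median of 0.163. RefSeq promoters were given for 10 of the 16, and all 10 held at least 10 CpG. For these 10 members the position and the CpG number cannot be told apart. The 38 CpG-rich members that were not divergent had 11 rises and 1 fall, and the 44 CpG-poor ones that were not divergent had 5 rises and 12 falls.

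**Figure D5:**
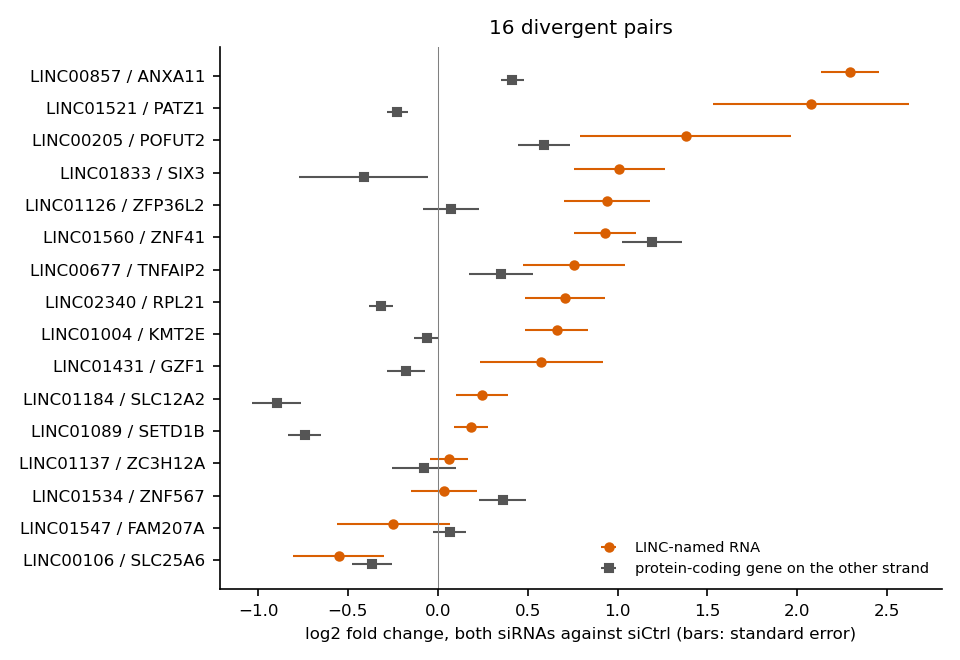
Log2 fold change over both siRNAs (horizontal axis, bars are standard errors) of 16 LINC-named RNAs (circles) and of the protein-coding gene that starts on the other strand (squares), ordered by the change of the RNA. The RNAs reach from LINC00106 at -0.55 to LINC00857 at 2.29, while the genes stay between -0.90 (SLC12A2) and 1.19 (ZNF41).

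The genes beside them moved with the RNA in some pairs and against it in others. The RNA and the gene had the same sign in 7 of the 16 pairs, and both passed the test in 4, of which 2 had the same direction. Spearman's rho over the 16 pairs was 0.33. ANXA11, an annexin gene whose start is 2138 bases from that of LINC00857, rose by 0.42 in log2 (standard error 0.07, limma adjusted p = 0.0011) beside 2.29 for the RNA, and ZNF41, a zinc finger gene, rose by 1.19 (standard error 0.17) beside 0.93 for LINC01560. In the other pairs that both passed, PATZ1, a zinc finger transcription factor gene, had -0.23 beside 2.08 for LINC01521, and RPL21, a ribosomal protein gene with many near-identical copies, had -0.32 beside 0.71 for LINC02340. SLC12A2, a sodium, potassium and chloride cotransporter gene, fell by 0.90 in log2 (standard error 0.14, adjusted p = 0.00087), while LINC01184, which starts 594 bases away, was at 1.52 ± 0.331 FPKM with siCtrl, 1.87 ± 0.151 with siCyclinK#1 and 1.73 ± 0.221 with siCyclinK#2. SETD1B, a histone methyltransferase gene, fell by 0.74 (standard error 0.09) beside LINC01089, whose log2 fold change was 0.19 (adjusted p = 0.17). Over all 97 members that were tested apart from the protein-coding gene with the nearest start, Spearman's rho between the log2 fold changes was 0.23 across pairs that share libraries, and 56 pairs had the same sign. Among the 33 pairs whose RNA passed the test, rho was 0.39 and 23 had the same sign, and both passed in 12, of which 9 had the same direction. In 18 members the start lay within 10000 bases downstream of the end of a protein-coding gene on the same strand, and 3 of these rose and 2 fell.

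Longer genes had higher medians, in the members and in all genes. Of 19 members that span more than 100000 bases, 4 rose and 2 fell (median log2 fold change 0.327), of 52 that span 10000 to 100000 bases, 15 rose and 5 fell (0.192), and of 66 shorter ones, 11 rose and 9 fell (0.099). All genes tested on 1 GENCODE gene had 867 rises and 183 falls of 2391 (0.281), 1750 and 1044 of 8140 (0.083) and 734 and 1007 of 9295 (-0.027) in the same classes. LINC00511, which spans 317350 bases, was among the long members that rose.

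Genes of the machinery that degrades such RNAs were measured as well. Of 22 genes tested for the nuclear exosome, its adaptors and the cap-binding complex, 11 fell and 2 rose over both siRNAs at an adjusted p under 0.05, with a median log2 fold change of -0.296, beside 11.5% lower and 17.0% higher of all genes. At a fold change over 3 limma called 0 of the 22, while 13 were lower and 2 higher at an unadjusted p under 0.05. EXOSC4 and EXOSC6, subunits of the exosome ring, fell from 24.2 to 13.5 and 15.1 FPKM and from 9.17 to 4.93 and 6.81. NCBP2, the small cap-binding subunit, was at 21.98, 21.5 and 22.7 FPKM with siCtrl, 18.0, 9.32 and 18.6 with siCyclinK#1, where 1 library stood apart (adjusted p = 0.065), and 11.8, 10.7 and 10.1 with siCyclinK#2, where it fell (adjusted p = 0.0078). MTREX, the helicase that feeds the exosome, rose from 22.6 to 26.9 and 28.0 FPKM, and ZC3H18, which links the cap to the exosome, from 4.37 to 7.10 and 7.20. The part of these genes in the members' levels was not tested.

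Among 31 well-known long noncoding RNAs without a LINC name, 5 rose and 11 fell, beside 17.0% higher and 11.5% lower of all genes. The falls were mainly of small nucleolar RNA host genes, with GAS5 going from 26.3 to 11.9 and 14.3 FPKM, SNHG5 from 48.6 to 24.8 and 26.0, and SNHG16 from 26.7 to 11 and 18.1. The rises were of CRNDE (log2 fold change 1.26), TP53TG1 (1.88), PURPL (1.13), JPX (1.10, on a row with AL627389.1 and RPSAP14) and H19 (2.33). H19 was at 0.119 ± 0.0399 FPKM with siCtrl, near the pseudocount of 0.1, so that the size of its fold change depends on the pseudocount. The nuclear RNA MALAT1 was at 10.2, 2.86 and 7.94 FPKM with siCtrl, 12.2, 90.8 and 9.05 with siCyclinK#1, and 18.9, 33.7 and 10.9 with siCyclinK#2. Its siCyclinK#1 libraries were far apart, and its adjusted p over both siRNAs was 0.10.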

How the data were processed

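RNA of A549 cells was sequenced in 9 libraries, 3 for each of siCtrl, siCyclinK#1 and siCyclinK#2. The authors assembled and quantified the reads with StringTie 1.3.3b and deposited FPKM per Ensembl gene or assembled locus, 1 file per library. The aligner and annotation release are not given in the sources used here. Rows were summed by reference gene, loci without one were left out, and genes with at least 0.1 FPKM in at least 3 libraries were kept. limma 3.58.1 (lmFit, eBayes with trend, R 4.3.3) was run on log2(FPKM + 0.1) over all 21048 genes, with Benjamini-Hochberg adjustment over all of them. Every adjusted p in the text is from limma. Values for both siRNAs come from a fit of 6 against 3 libraries, and those of single siRNAs from a fit of 3 groups. The code was tested on simulated data.

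Reads were recovered from FPKM times GENCODE 29 exon length, and 85% of nonzero values over 27835 rows came out whole within 0.05. limma-voom on these reads tested 10149 genes and called 459 over both siRNAs. Depth was 31333749 to 33767961 reads per library. Intervals and floors cover counting error only. Named members were the 10 most abundant, up to 10 rises and 10 falls with the largest fold change among those past the adjusted p whose libraries did not overlap, up to 5 in each direction between the siRNAs, a list of names known from reviews, and the 3 lowest. Other members named in the text were chosen after their values were seen. The members and lists were chosen with earlier results of these data known. Alternatives were other pseudocounts, filters, scalings, a replicate block and leaving out each library.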

Additional observations from a re-analysis of the deposited data

Results flagged for a closer look

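LINC01315 had 1 siCyclinK library far from the other 5. siCyclinK#2 replicate 1 was at 1.2 FPKM, and its gap to the next library was 0.648 of the range of the 6 siCyclinK libraries, past the 95% limit of Dixon's test for 6 values. It was the 1 such library in a search of 47 named members, where chance at 1 in 20 would give 2.35. The search pooled both siRNAs, so that it could pass over a library apart from its own group, as with siCyclinK#2 for LINC01619. The library had 49 recovered reads of LINC01315, against 11 to 25 in the other siCyclinK libraries.

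In 3 members the siRNAs moved the level in opposite directions, each past the limma test, and the difference of siCyclinK#1 minus siCyclinK#2 was tested directly. It was -1.79 in log2 for LINC00707, -1.30 for LINC01140 and 1.31 for LINC00888. The opposite directions held in 19 of 19 settings for LINC00707 and LINC01140 and in 8 of 19 for LINC00888, while the direct difference passed in 19 of 19 for each of the 3.

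Of the LINC-named genes with a mean under 0.3 FPKM, 143 of 544 passed the filter, and 12 of these were higher and 3 lower over both siRNAs by limma, which is 8.39% and 2.10%, below the 17.0% and 11.5% of all genes tested.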

How the results depend on the processing

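Over both siRNAs, the 8 called members became 1 with limma-voom on recovered reads, 4 with genes of mean FPKM of at least 1, 1 with a pseudocount of 0.5, 1 with a pseudocount of 1 and 26 with a fold change over 2, and 4 to 8 without single libraries. The 46 members past the adjusted p became 18 of 63 with limma-voom and 24 of 57 with a mean of at least 1, 61 with 3 groups in the fit, and 31 to 47 without single libraries. The 11 called with siCyclinK#1 became 5 with a mean of at least 1, 19, 3 and 1 with pseudocounts of 0.01, 0.5 and 1, and 31 with a fold change over 2. The 3 called with siCyclinK#2 became 7 and 1 with pseudocounts of 0.01 and 1, 21 with a fold change over 2, and 3 to 7 without single libraries. The 5 called between the siRNAs became 3 with limma-voom, 2 with a mean of at least 1, 9, 1 and 0 with pseudocounts of 0.01, 0.5 and 1, 14 with a fold change over 2, 3 among members with a mean of at least 0.5, and 5 to 8 without single libraries. The cause of these shifts was not tested.

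None of the 25 named members past the adjusted p changed sign in the settings run, and 6 of them lost the threshold without some library, LINC00472, LINC00618, LINC00997, LINC01444, LINC01468 and LINC01521. Changes of sign occurred in 5 members that were not past it. LINC00707 became -0.037 under quantile normalization and ran from -0.080 to 0.312 without single libraries. LINC01816 became 0.426 with limma-voom and 0.036 and 0.037 with pseudocounts of 0.5 and 1, and ran from -0.334 to 0.263. LINC00839 ran from -0.455 to 0.192, LINC01619 from -0.464 to 0.152 and LINC01772 from -0.212 to 0.110.

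The values showed no pairing by replicate number, since deviations of same-numbered libraries correlated by -0.0711 to 0.0379 over 9 pairs. Whether same-numbered libraries were handled together cannot be told from this, and the labels do not say. With a replicate block, 7 members were called and 36 were past the adjusted p over both siRNAs, 11 and 3 were called with siCyclinK#1 and siCyclinK#2, and 6 between them. Depth limited the scarce members, of which 12 of the 66 with recovered reads had a library at or under 3 reads.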
